A study of Mus musculus with 3 samples.

Results

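The 41 genes described here encode soluble enzymes of the lysosome, proteins of its membrane, and Tfeb, a transcription factor of lysosomal genes. They were taken by name from a list of lysosomal functions, drawn up with earlier results of these data known: 9 genes are cysteine cathepsins or legumain, 3 are serine and aspartic proteases, 10 are glycosidases, 4 are sulfatases, 6 act in lipid breakdown and 8 are membrane proteins, beside Tfeb. All 41 had a probe on the array among 32176 genes, named or unnamed, and 39 of them were among the 19802 bright enough to be tested. Of these 19802, 14884 had a gene symbol. The rest were counted as genes too, under an accession or probe name, in all shares of all genes below. Each gene was read from its brightest probe.

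The samples were mouse embryoid bodies, aggregates in which embryonic stem cells differentiate, taken at day 8 of a cardiac protocol. Hopx-/- cultures, called null here, were compared with Hopx+/- cultures, called heterozygous, which keep 1 working copy of Hopx, the gene of a small homeodomain protein of heart and progenitor cells. Both genotypes came from stem cells derived from blastocysts on STO feeder cells, a mouse fibroblast line, with a MEK1 inhibitor that was later withdrawn, and were then kept on growth-arrested embryonic fibroblasts. Both formed embryoid bodies in hanging drops of 20 µl and were plated in medium with the growth factors VEGF (5 ng/ml), bFGF (10 ng/ml) and FGF10 (12.5 ng/ml), to which 1 mM of ascorbic acid and 2 mM of Glutamax had been added. RNA of a null and a heterozygous culture was labelled in different colours and hybridised to the same Agilent array, for 3 biological replicates. The labels do not say whether replicates were separate stem cell lines, so each p-value reflects only how far these samples spread, and genotype and line cannot be told apart. No wild-type culture was compared here, and the labels do not say whether feeder cells were removed.

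Lysosomes are acidic organelles in which proteins, sugar chains, sulfated polysaccharides and lipids from endocytosis and autophagy are broken down. Most of their enzymes are tagged with mannose 6-phosphate in the Golgi, carried to the organelle by receptors and activated at low pH, which a proton pump of the membrane maintains. Tfeb and its relatives Tfe3, Mitf and Tfec bind a short motif in the promoters of many lysosomal genes, and mTORC1 on the lysosome surface holds Tfeb in the cytoplasm when nutrients are plentiful. In the early mouse conceptus the visceral endoderm, an absorptive epithelium, is known for its large and active lysosomes.

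The promoter stretches below are shown because they hold the core letters of that motif, CACGTG, and because the genes behind them moved differently. They were copied from RefSeq promoter windows of 300 bases, 250 before and 50 from the transcription start on, on build GRCm38.p6. Each stretch has 60 bases, is written 5′ to 3′ along the gene's own strand, and has the hexamer in capitals. Ctsa encodes the protective protein cathepsin A, and its stretch lies at chr2:164833713-164833772 on the plus strand, directly before the start.
Ctsa: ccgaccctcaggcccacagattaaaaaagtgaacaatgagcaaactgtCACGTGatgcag
Ctsd encodes the aspartic protease cathepsin D, and its stretch lies at chr7:142387898-142387957 on the minus strand.
Ctsd: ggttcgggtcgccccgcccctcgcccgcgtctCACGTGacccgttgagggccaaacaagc
Gla encodes alpha-galactosidase A, and its stretch, with 2 hexamers, lies at chrX:134601186-134601245 on the minus strand.
Gla: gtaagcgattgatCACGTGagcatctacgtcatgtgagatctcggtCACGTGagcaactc
Mcoln1 encodes the calcium channel mucolipin 1, and its stretch, with 2 hexamers, lies at chr8:3500429-3500488 on the plus strand.
Mcoln1: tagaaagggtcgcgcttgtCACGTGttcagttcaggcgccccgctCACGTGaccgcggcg
Lamp1 encodes a main glycoprotein of the lysosomal membrane. Its stretch lies at chr8:13159096-13159155 on the plus strand, holds 4 hexamers, and was chosen after its sequence was seen.
Lamp1: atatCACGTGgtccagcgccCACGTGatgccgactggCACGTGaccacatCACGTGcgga

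A window was at hand for 36 of the 41 genes, and those of Ctsh, Ctsb, Galns, Asah1 and Npc1 were not analysed here. CACGTG, which reads the same on both strands, stood in the windows of 13 genes (36.1%), against 8.09% of the 27025 genes in the table. These were Arsa, Cln3, Ctsa, Ctsd, Ctsf, Ctsl, Gaa, Gla, Glb1, Lamp1, Lgmn, Mcoln1 and Naglu. The longer palindrome TCACGTGA, which contains the hexamer, stood in 5 windows (13.9%), against 1.12% of all genes, and these were Cln3, Ctsa, Ctsd, Gla and Mcoln1. The same genes were found within the 250 bases before the start alone. Among tested genes with a window, 38.2% of the lysosomal genes held CACGTG, against 11.2% of all genes. For TCACGTGA these shares were 14.7% and 1.96%. A match of letters is a description and does not show that a factor bound there.

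Over the series, 61.9% to 72.9% of spots stood well above background in a channel. Precision is limited by there being 3 arrays. All labels give the null culture Cy5, yet the log2 ratios of replicate 3 ran opposite to those of replicates 1 and 2 over the kept probes (r = -0.90 with each, against 0.94 between those). The labels therefore do not settle the direction of replicate 3. The authors' deposited table holds it turned, and it was turned here too. As labelled, limma called 0 genes (61 at an unadjusted p under 0.05, none of them lysosomal) and the lysosomal genes had a median log2 ratio of -0.22. Without replicate 3 the median was -0.82, with 32 lysosomal genes lower and 2 higher. At that setting 30.3% of all genes were lower and 29.6% higher. Hopx itself, turned in the same way, read -2.98, -2.97 and -3.45 on the 3 arrays, 8.76-fold lower in the null cultures (mean log2 ratio -3.13, SE 0.11, adjusted p = 2.84e-07).

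Lysosomal genes were mostly lower in the null embryoid bodies. Of the 39 tested, 33 were lower and 1, Gusb, was higher at an adjusted p under 0.05, while Ctsk, Idua, Gla, Asah1 and Mcoln1 were not called. Over all genes tested the same threshold called 30.1% lower and 30.2% higher, so the lysosomal share of lower calls (84.6%) lay above the background and its share of higher calls (2.56%) below it. Lower by at least 2-fold were 16 lysosomal genes, against 6.03% of all genes, and none was higher by that much, against 4.87% of all genes. With median centring in place of loess, 6 were lower by at least 2-fold, but the 2-fold share of all genes was not determined at that setting. With loess, the median log2 ratio of the 39 genes was -0.85, against 0.0034 over all genes. The most affected were the proteases Ctsh and Lgmn, 9.95-fold and 9.2-fold lower.

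The arrays gave like pictures. The median over the 39 genes was -0.77, -0.89 and -0.87 on the 3 arrays, and 35, 37 and 34 of the genes lay below 0, where 49.2% to 50.4% of all genes did. On the log2 signal scale, the null values of 31 genes were all below their heterozygous values, against 26.3% of all genes, and those of Gusb alone were all above, against 26.3% of all genes. The signals of Asah1, Cln3, Ctsk, Galns, Gla, Idua and Mcoln1 overlapped between the genotypes. The SD of a gene's log2 ratio over arrays ran from 0.015 for Cln3 to 0.38 for Ctsd, with a median of 0.13. With median centring in place of loess 22 genes were lower, where 15.2% of all genes were. Lamp1, Lamp2, Scarb2, Glb1, Ids, Man2b1, Galns, Psap and Tpp1 were then no longer called. Summed over the 39 genes, the linear signal was 194700 to 213520 in the null and 460620 to 498350 in the heterozygous cultures, a ratio of 0.428, 0.429 and 0.423. No spot of these genes was saturated. In such bulk samples, fewer cells of a type that is rich in lysosomes and less RNA per cell cannot be told apart.

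**Figure D1:**
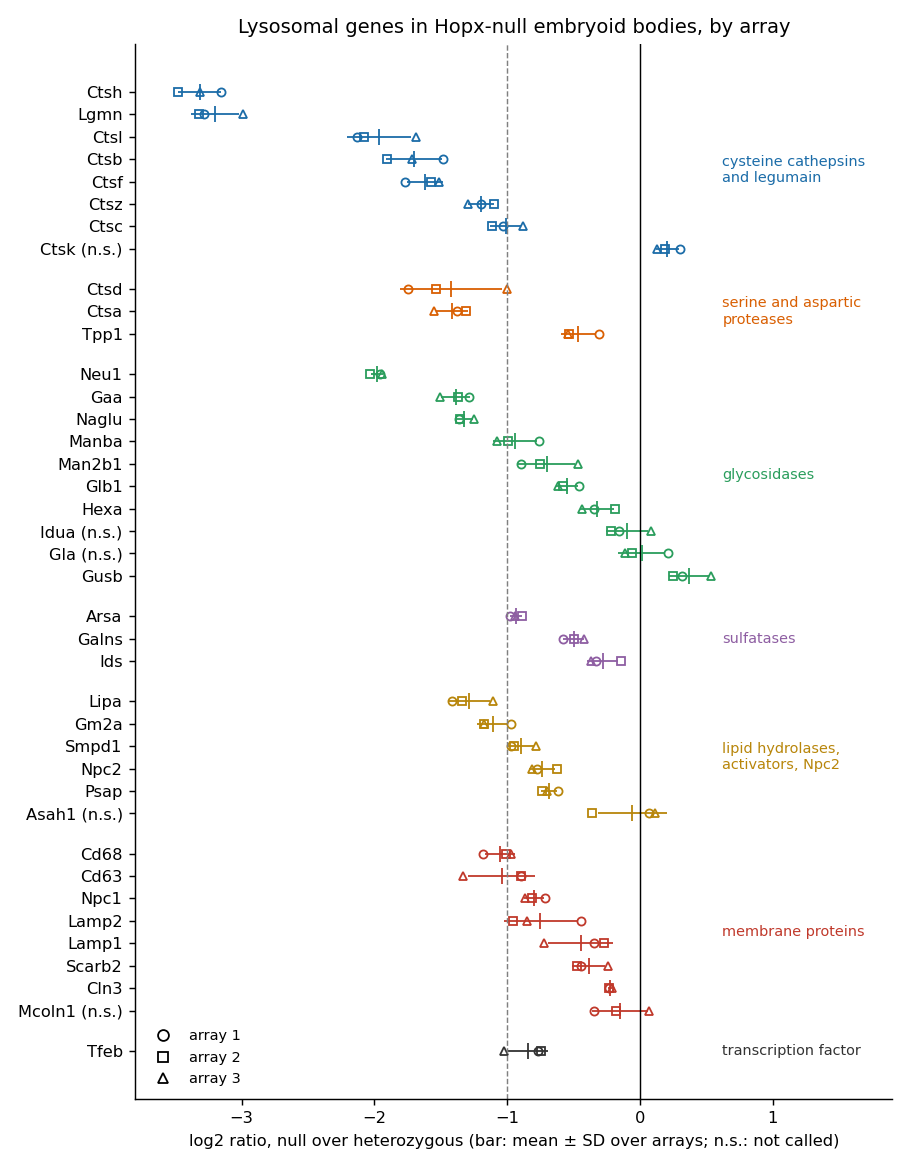
Log2 ratio of null over heterozygous signal for the 39 lysosomal genes tested, grouped by role; circle, square and triangle mark replicates 1, 2 and 3, the bar gives the mean ± SD over the 3 arrays, and the dashed line marks a 2-fold fall. Of the 39 genes, 33 were called lower, Ctsh and Lgmn lie farthest to the left, and Gusb is the 1 gene called higher.

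**Figure D2:**
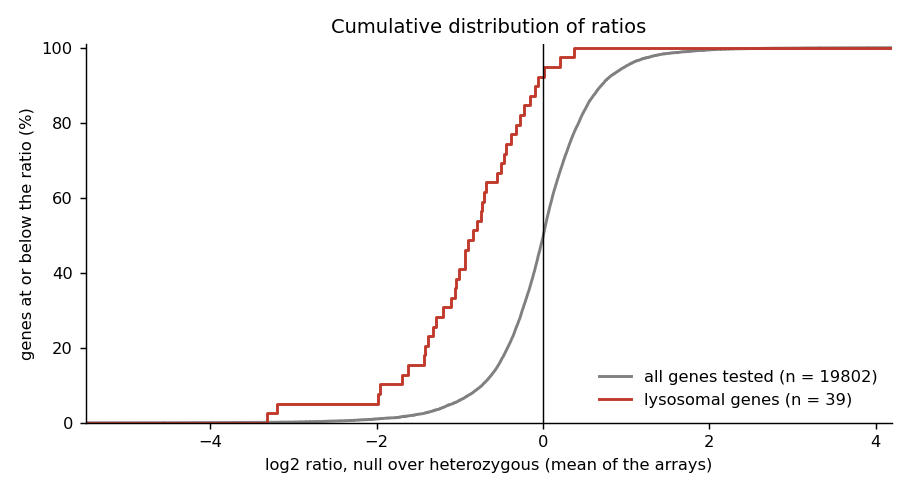
Cumulative share of genes (%) at or below a mean log2 ratio of null over heterozygous signal, for the 39 lysosomal genes and for all 19802 genes tested. The median lies at -0.85 for the lysosomal genes and at 0.0034 for all genes.

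Cysteine cathepsins, which digest proteins with a cysteine in the active site, and legumain, an asparagine-specific protease that also matures cathepsins, fell most. Of 8 tested, 7 were lower, all 7 by at least 2-fold, and their median log2 ratio was -1.66. Ctsh, an aminopeptidase, had log2 signals of 12.9, 12.3 and 12.5 in the null cultures and of 16.0, 15.8 and 15.8 in the heterozygous ones. The genotypes stood far apart on every array. Its mean log2 ratio of -3.31 (SE 0.093, adjusted p = 1.27e-07) was below that of all but 0.121% of the genes tested. Lgmn, which encodes legumain, had log2 signals of 12.5, 12.4 and 12.4 in the null cultures and of 15.8, 15.7 and 15.4 in the heterozygous ones. Its null cultures were close to each other, and the fall was smallest in replicate 3. The mean log2 ratio was -3.20 (SE 0.095, adjusted p = 1.54e-07).

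Ctsl and Ctsb encode cathepsins L and B, broadly expressed endopeptidases. Ctsl read 13.7, 13.6 and 13.7 in the null and 15.8, 15.7 and 15.4 in the heterozygous cultures on the log2 signal scale, without overlap. It was 3.91-fold lower (log2 ratio -1.97, SE 0.11, adjusted p = 1.76e-06). Ctsb read 13.1, 12.7 and 12.9 in the null cultures and stood at 14.6 in all 3 heterozygous ones. It was 3.25-fold lower (log2 ratio -1.70, SE 0.10, adjusted p = 2.73e-06). Ctsf, the gene of cathepsin F, read 8.29, 8.02 and 7.91 in the null and 10.1, 9.60 and 9.43 in the heterozygous cultures. Replicate 1 was the highest in both genotypes, and the gene was 3.07-fold lower (log2 ratio -1.62, SE 0.089, adjusted p = 1.99e-06).

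Ctsz, the gene of the carboxypeptidase cathepsin Z, read 12.8, 12.7 and 12.4 in the null and 14.0, 13.8 and 13.7 in the heterozygous cultures. The groups did not overlap, and Ctsz was 2.29-fold lower (log2 ratio -1.20, SE 0.085, adjusted p = 7.64e-06). Ctsc, whose product activates serine proteases of immune cells, read 10.1, 10.0 and 10.0 in the null and 11.2, 11.2 and 10.9 in the heterozygous cultures. It lay just past a 2-fold fall, with a log2 ratio of -1.01 (SE 0.087, adjusted p = 2.09e-05). Ctsk, the collagen-degrading cathepsin of osteoclasts, read 6.79, 6.92 and 6.94 in the null and 6.49, 6.73 and 6.82 in the heterozygous cultures. The genotypes overlapped and it was not called (log2 ratio 0.21, SE 0.084, adjusted p = 0.0623), while without replicate 3 it was called higher (0.24, adjusted p = 0.0455). Ctss, a cathepsin of antigen-presenting cells, was not tested, because it was well above background on 2 null arrays and on no heterozygous array. Its log2 ratios were 0.14, 0.30 and 0.17, and the null signal was at least 1.13-fold higher than the background limit of the other channel.

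Among the serine and aspartic proteases 3 of 3 tested were lower, with a median log2 ratio of -1.42. Ctsd, the main aspartic protease of lysosomes, read 12.8, 12.8 and 12.9 in the null and 14.5, 14.3 and 13.9 in the heterozygous cultures. The heterozygous values were all higher, but they spread more widely than the null ones. The log2 ratio was -1.74 and -1.54 on replicates 1 and 2, came close to a 2-fold fall on replicate 3, and averaged -1.43 (SE 0.13, adjusted p = 3.54e-05), and a second, dimmer Ctsd probe gave -0.56 (adjusted p = 0.00549). Ctsa, whose product protects the galactosidase and neuraminidase named below, read 12.7, 13.2 and 13.0 in the null and 14.1, 14.5 and 14.5 in the heterozygous cultures. The fall was alike on the 3 arrays and averaged -1.42 (SE 0.088, adjusted p = 3.57e-06), while a second Ctsa probe of much lower signal gave -0.28 (adjusted p = 0.039). Tpp1, a tripeptidyl peptidase, was the smallest change of this role at -0.46 (SE 0.089, adjusted p = 0.00199).

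**Figure D3:**
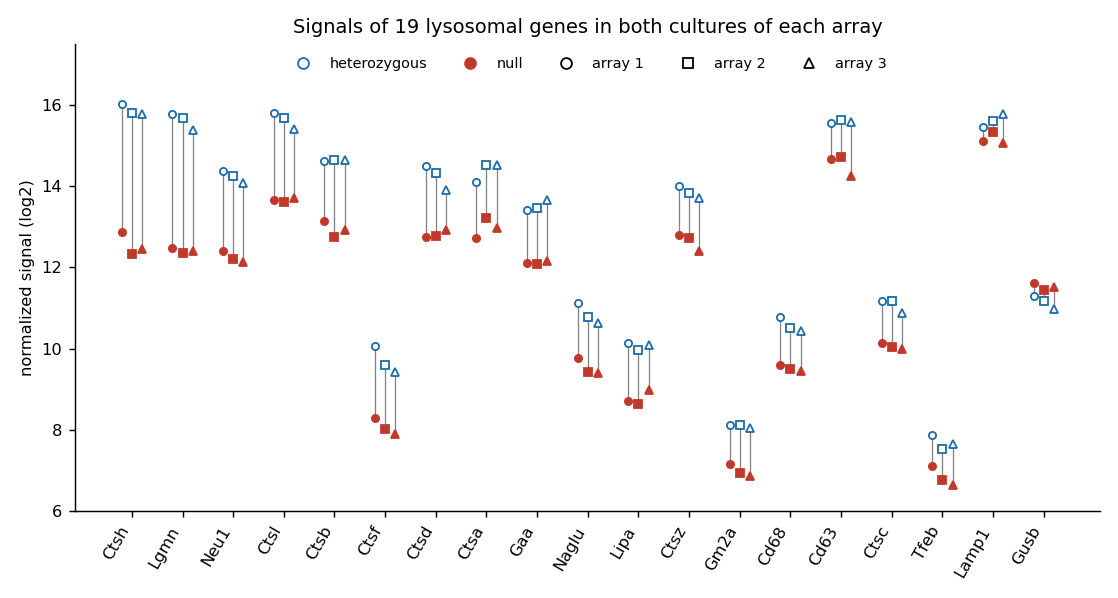
Normalized log2 signal of 19 lysosomal genes in the null (filled) and heterozygous (open) culture of each array; circle, square and triangle mark replicates 1, 2 and 3, and a line joins both cultures of an array. The 16 genes lower by at least 2-fold, Tfeb and Lamp1 have every null value below every heterozygous value, and Gusb has the opposite order.

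Glycosidases, which remove sugars from glycoproteins, glycolipids and glycosaminoglycans, were split. Of 10 tested 7 were lower and 1 was higher, with a median log2 ratio of -0.63. Neu1, the lysosomal neuraminidase, read 12.4, 12.2 and 12.1 in the null and 14.4, 14.2 and 14.1 in the heterozygous cultures. Its fall was nearly equal on every array (SD 0.048), and it was 3.94-fold lower (log2 ratio -1.98, SE 0.082, adjusted p = 5.65e-07). Gaa, which cuts glycogen in lysosomes, read 12.1, 12.1 and 12.2 in the null and 13.4, 13.5 and 13.7 in the heterozygous cultures. The groups stood apart, with a log2 ratio of -1.39 (SE 0.086, adjusted p = 3.6e-06), and a dimmer Gaa probe gave -0.75 (adjusted p = 0.000348). Naglu, an enzyme of heparan sulfate breakdown, read 9.76, 9.43 and 9.39 in the null and 11.1, 10.8 and 10.6 in the heterozygous cultures. It was 2.50-fold lower on like ratios in the 3 arrays (log2 ratio -1.32, SE 0.082, adjusted p = 3.66e-06).

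The other glycosidases changed less. Manba and Man2b1, a beta- and an alpha-mannosidase, had log2 ratios of -0.94 and -0.70, and Glb1, the beta-galactosidase, had -0.55. Hexa, the alpha subunit of beta-hexosaminidase, was the smallest fall (-0.32, SE 0.088, adjusted p = 0.012). Its call was lost without replicate 1 (-0.31, adjusted p = 0.0566), and with median centring in place of loess its sign turned (0.09, adjusted p = 0.482). Gusb, the beta-glucuronidase, was spotted 10 times per array and read 11.6, 11.4 and 11.5 in the null and 11.3, 11.2 and 11.0 in the heterozygous cultures. All null values lay above all heterozygous values, with a log2 ratio of 0.37 (SE 0.091, adjusted p = 0.00764). Gla, whose promoter stretch with 2 hexamers is printed above, had log2 ratios of 0.21, -0.06 and -0.12. They fell on both sides of 0, and it was not called (0.01, SE 0.094, adjusted p = 0.925), but with median centring it was called higher (0.44, adjusted p = 0.0193). The Idua probes disagreed: the brighter was not called (-0.10, adjusted p = 0.386), and the dimmer was lower (-0.92, adjusted p = 3.06e-05). Idua encodes the iduronidase of glycosaminoglycan breakdown.

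Sulfatases remove sulfate from glycosaminoglycans and sulfolipids, and the 3 that could be tested were lower, none by 2-fold (median log2 ratio -0.50). Arsa, the sulfatide-cleaving arylsulfatase A, changed most (-0.94, SE 0.082, adjusted p = 2.28e-05) with null signals of 12.0, 11.8 and 11.7 against 13.0, 12.7 and 12.6. Its values did not overlap between the genotypes. Galns, which acts on keratan sulfate, had a log2 ratio of -0.50 and overlapping signals, both genotypes being lowest on replicate 3. Ids, the iduronate sulfatase, changed least (-0.28, SE 0.087, adjusted p = 0.0216), and its call was lost without replicate 1 (-0.26, adjusted p = 0.105) and without replicate 3 (-0.24, adjusted p = 0.0556). Arsb was not tested. Its brighter probe was well above background on 1 null and 2 heterozygous arrays, with log2 ratios of -0.23, -0.05 and 0.16, and its other probe on 1 null array, with -0.06, 0.18 and 0.06. With median centring, 1 of the 3 sulfatases, 4 of the 10 glycosidases and 3 of the 8 membrane proteins were called lower. Over all genes 15.2% were called lower at that setting, against 30.1% with loess.

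Of 6 genes of lipid breakdown 5 were lower, with a median log2 ratio of -0.82. Lipa, the acid lipase of cholesteryl esters, read 8.72, 8.64 and 8.98 in the null and 10.1, 9.98 and 10.1 in the heterozygous cultures. The groups stood apart, and Lipa was 2.44-fold lower (log2 ratio -1.29, SE 0.092, adjusted p = 7.84e-06). Gm2a, the activator that presents ganglioside to hexosaminidase, read 7.15, 6.95 and 6.87 in the null and 8.13, 8.13 and 8.04 in the heterozygous cultures. It was 2.15-fold lower without overlap (log2 ratio -1.11, SE 0.087, adjusted p = 1.3e-05), and a dimmer probe gave -0.37 (adjusted p = 0.00406). Smpd1, the acid sphingomyelinase, Npc2, a soluble cholesterol carrier, and Psap, the precursor of the saposins, had log2 ratios of -0.90, -0.74 and -0.69. Asah1, the acid ceramidase, was the exception. Its log2 ratios were 0.07, -0.36 and 0.11 and it was not called (-0.06, SE 0.11, adjusted p = 0.659), nor was its dimmer probe (0.16, adjusted p = 0.197).

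Of 8 membrane proteins 7 were lower, 2 of them by at least 2-fold, with a median log2 ratio of -0.60. Cd68, a glycoprotein of endosomes and lysosomes best known from macrophages, read 9.60, 9.51 and 9.46 in the null and 10.8, 10.5 and 10.4 in the heterozygous cultures. The groups did not overlap, and its log2 ratio was -1.06 (SE 0.087, adjusted p = 1.63e-05). Cd63, a tetraspanin of late endosomes, read 14.7, 14.7 and 14.3 in the null and stood at 15.6 in all 3 heterozygous cultures. Replicate 3 fell most, and the log2 ratio averaged -1.04 (SE 0.11, adjusted p = 5.83e-05). Npc1, the membrane partner of Npc2 in cholesterol export, had -0.80, and Lamp2, a receptor of chaperone-mediated autophagy, had -0.75, with -0.90 on its second probe. Scarb2, which carries glucocerebrosidase to lysosomes, had -0.39.

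Lamp1, with Lamp2 the most abundant protein of the lysosomal membrane, read 15.1, 15.3 and 15.1 in the null and 15.5, 15.6 and 15.8 in the heterozygous cultures. The values did not overlap, but the gap was small on replicates 1 and 2. Its log2 ratios of -0.35, -0.27 and -0.72 averaged -0.45 (SE 0.11, adjusted p = 0.00585), and with median centring the fall was no longer called (-0.02, adjusted p = 0.923). Cln3, a membrane protein mutated in juvenile Batten disease, had the smallest called fall (-0.23, SE 0.081, adjusted p = 0.0379). Leaving out replicate 1, 2 or 3 ended that call (adjusted p = 0.141, 0.151 and 0.0504), and median centring turned its sign (0.16, adjusted p = 0.267). Its 2 other probes gave -0.20 (adjusted p = 0.0696) and 0.35 (adjusted p = 0.00597), so the Cln3 probes disagree. Mcoln1, whose promoter stretch is printed above, had log2 ratios of -0.34, -0.18 and 0.07. It was not called (-0.15, SE 0.10, adjusted p = 0.22), but was called lower without replicate 3 (-0.26, adjusted p = 0.0359).

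Tfeb, the transcription factor of the list, read 7.10, 6.78 and 6.64 in the null and 7.87, 7.52 and 7.67 in the heterozygous cultures. Every null value was below every heterozygous value. Its log2 ratios of -0.77, -0.74 and -1.02 averaged -0.85, a 1.80-fold fall (SE 0.091, adjusted p = 7.89e-05). From the signals as processed by the scanner software the log2 ratio was -1.47, and from the authors' deposited table it was -0.61, while the call was lost with an ordinary t statistic (adjusted p = 0.0516 over all probes).

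The change of each gene was set against the hexamer in its promoter. Of the 13 genes with CACGTG 11 were lower, and of the 21 tested genes without it 18 were lower. The median log2 ratio was -1.32 with the hexamer and -0.75 without. Of the 5 genes with the longer palindrome 3 were lower, Ctsa, Ctsd and Cln3, while Gla and Mcoln1 were not called. Of the 29 tested genes without it 26 were lower. Here the order of the medians was the opposite, -0.23 with the palindrome and -0.90 without. Over all tested genes with a window, 29.5% of those with CACGTG were lower and 32.8% higher, against 30.6% and 32.1% of those without. Of those with TCACGTGA 32.0% were lower and 22.9% higher, against 30.5% and 32.4% of those without. These shares and medians are descriptions, and no test of them was made.

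Other lysosomal genes were lower in smaller shares, and the difference was not tested. Of each list 40% to 75% were lower, against 84.6% of the lysosomal set and 30.1% of all genes. Higher were 0% to 30%, against 2.56% of the set and 30.2% of all genes. Other hydrolases had 17 lower and 2 higher of 27 tested, with a median log2 ratio of -0.40. With median centring 10 were lower and 6 higher, with a median of -0.047. At that setting 15.2% of all genes were lower and 43.1% higher, with a median of 0.23. The carboxypeptidase Scpep1 had -1.43 and the fucosidase Fuca1 had -1.06. The higher genes were Smpdl3a (1.02), a phosphodiesterase, and Ggh (0.54), a hydrolase of folate chains. Of 20 other membrane proteins 12 were lower and 4 higher, with a median of -0.45, and with median centring 6 were lower and 5 higher (median -0.074). The tetraspanin Cd9 had -1.30, the endolysosomal channel Tpcn1 had -1.02 and Tmem106b had -0.96, while the chloride-proton exchanger Clcn7 was higher (0.94), as were Laptm5 (0.58), Lamp3 (0.54) and Mcoln3 (0.39).

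The vacuolar ATPase, the proton pump, had 10 lower and 0 higher of 19 subunits tested, with a median log2 ratio of -0.26. With median centring 2 were lower and 1 higher (median 0.15, against 0.23 over all genes). At that setting 15.2% of all genes were lower and 43.1% higher. The pump's membrane subunits Atp6v0a1 and Atp6v0b had -1.18 and -0.76, and the catalytic subunit Atp6v1a had -0.66. At an unadjusted p under 0.05, 0 subunits were higher as well. Of 10 genes of mannose 6-phosphate tagging and sorting 4 were lower and 3 higher (median -0.13). These shares of 40% and 30% lay near the 30.1% and 30.2% of all genes. With median centring 1 was lower and 4 were higher (median 0.16, also below that of all genes). The sorting receptor Igf2r had -0.83 and the adaptor Gga2 -0.84, with -1.18, -1.13 and -0.20 on the 3 arrays, while the adaptor Gga3 (0.59), the receptor M6pr (0.53) and Gga1 (0.23) were higher. Without replicate 3, 2 genes of this list were lower.

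Among Tfeb relatives and the mTORC1 machinery 11 of 20 were lower and 5 higher, with a median log2 ratio of -0.31. With median centring 3 were lower and 7 higher (median 0.13). At that setting 15.2% of all genes were lower and 43.1% higher (median 0.23). Tfec and Mitf had -1.65 and -1.39, while Tfe3 had 0.06 and was not called. The parts of the mTORC1 complex and of its lysosomal anchor moved both ways. Higher were Rragb (0.70), Mlst8 (0.51), Mtor (0.42), Rptor (0.28) and Lamtor5 (0.22). Lower were the anchor parts Rragd (-0.61), Lamtor2 (-0.57), Rragc (-0.45), Lamtor3 (-0.33) and Lamtor1 (-0.29) and the regulators Fnip1 (-0.47), Flcn (-0.39), Fnip2 (-0.34) and Tsc1 (-0.33), and without replicate 2 the higher calls were 3. Of 22 genes of autophagy and lysosome fusion 9 were lower and 2, Atg5 (0.39) and Sqstm1 (0.32), were higher (median -0.06), and without replicate 2 only 1 was. With median centring 5 of these were lower and 9 higher, beside the same shares of all genes. The median was then 0.26, which is 0.034 above that of all genes. Wipi1 and Gabarapl1, which act in autophagosome formation, had -0.97 and -0.93, and Atg12, a ubiquitin-like conjugate, had -0.82. Of 4 inhibitors of cathepsins Cst3 (-0.63), Cstb (-0.59) and Cst6 (-0.24) were lower and Stfa2 was higher (0.51), the last not without replicate 2 or 3, and with median centring the 3 falls were no longer called. Over these 7 lists 66 genes were lower and 17 higher, while calls over all genes were nearly balanced (30.1% lower and 30.2% higher).

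**Figure D4:**
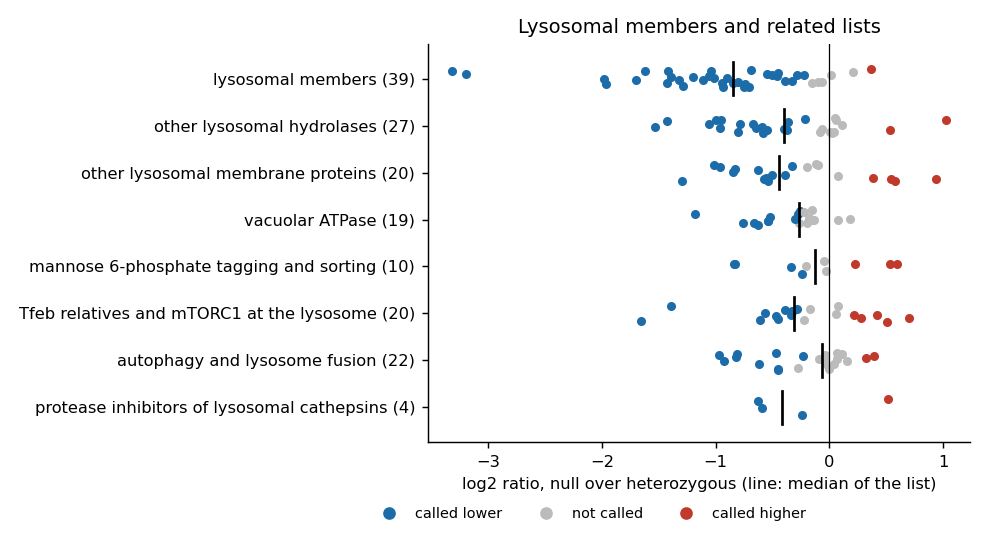
Mean log2 ratio of null over heterozygous signal for each tested gene of the lysosomal set and of 7 related lists, with the number tested in brackets; blue points were called lower, red points higher and grey points were not called, and the black line is the median of the list. The median runs from -0.85 for the lysosomal set to -0.06 for autophagy and lysosome fusion.

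Markers of several cell types differed between the genotypes beside these genes. Of 15 markers of visceral and yolk sac endoderm 15 were lower, with a median log2 ratio of -2.03. Cubn, the cubilin receptor of protein uptake, had -4.25, the retinol carrier Rbp4 had -3.68 and Amn, the membrane anchor of cubilin, had -3.14. Their summed linear signal was 52687 to 64017 in the null and 240050 to 258210 in the heterozygous cultures, and each marker was well above background on at least 1 array of either genotype. Of 12 parietal endoderm and trophoblast markers 10 were lower (median -0.97), led by Srgn at -4.98, Lama1 at -2.56 and Sparc at -1.70, with summed signals of 62839 to 74899 against 208470 to 219370. The part of these cells in the fall of the lysosomal genes was not tested.

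Macrophage markers, which bear on Cd68, Ctss and Ctsc, did not move one way. Of 18 listed, 17 were on the array and 12 were tested, with 2 lower and 5 higher. Csf1r had -1.95 and Fcgr3 -0.84, while Tyrobp (1.31), Fcer1g (1.19) and Mrc1 (0.78) were higher. Cx3cr1 and C1qc were also called higher, but were not well above background on any heterozygous array, and were at least 3.79-fold and at least 1.30-fold higher. With probes required above background in both genotypes, 9 macrophage markers were tested, 2 lower and 3 higher. Ptprc, Spi1, Lyz1, Lyz2 and C1qa were not well above background on all arrays of either genotype, and Aif1, which was not called, was well above background only in the null cultures. Summed macrophage signals were 5719 to 8563 in the null and 7429 to 10024 in the heterozygous cultures. The null sum was lower on every array, with ratios of 0.78, 0.71 and 0.85. It weighs the brightest markers most, Itgam and Csf1r, whose mean log2 signals were 11.8 and 11.7 in the heterozygous cultures. In the null cultures they were 11.7 and 9.75, so Itgam hardly changed and Csf1r fell. The median log2 ratio of the list was 0.12, so the lower sum does not describe the macrophage markers as a group. Of 7 osteoclast markers 3 were higher, Itgb3 (1.30), Calcr (0.77) and Mmp9 (0.73), and 1 was lower, Acp5 (-0.40, not called without replicate 2). Their summed signals were 5650 to 8278 against 6238 to 6897, with ratios of 1.20, 0.91 and 1.27 on the 3 arrays. Fibroblast and feeder markers had 6 higher and 1 lower of 10, with Col1a2 at 1.59, Lum at 1.17, Dcn at 1.05 and Pdgfra at -0.55, and 2 were lower without replicate 3. With median centring, Acp5 and Pdgfra were not called lower. The summed signal of the 7 with a value on every array was 48592 to 68186 in the null and 23057 to 32500 in the heterozygous cultures. Their part in the lysosomal result was not tested.

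The cell types of the protocol itself differed too. All 10 cardiomyocyte markers were lower (median log2 ratio -2.83), with Myh6 at -5.31, Myh7 at -5.11 and Myl7 at -4.11. Tnni3 was well above background on 2 null and 3 heterozygous arrays, so it was tested only through the heterozygous signal. With probes required above background in both genotypes, 9 cardiomyocyte markers were tested and 9 were lower. The summed signal of the 9 with a value on every array was 4155 to 6875 in the null and 91245 to 122700 in the heterozygous cultures. Higher in the null cultures were 8 of 10 pluripotent and epiblast markers, led by Fgf5 (3.65), L1td1 (2.06) and Nanog (2.01), while Zfp42 was lower (-1.09). All 10 primitive streak markers tested were higher, with Mesp1 at 3.76 and Eomes at 2.52. T and Mixl1 were not well above background on any heterozygous array, so they were tested only through the null signal, and they were at least 6.72-fold and at least 1.91-fold higher. Mesp2 (0.53), well above background on 3 null and 2 heterozygous arrays, was also tested only through the null signal. With probes required above background in both genotypes, which leaves out T, Mixl1 and Mesp2, 7 primitive streak markers were tested and 7 were higher. Higher too were 7 of 7 neuroectoderm markers, led by Zic2 (2.60), Tubb3 (2.29) and Sox3 (2.22). Of 8 endothelial markers 7 were higher, led by Cdh5 (1.23), Kdr (1.19) and Emcn (1.08), and Flt1 was lower (-0.80). Their part in the lysosomal result was not tested.

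**Figure D5:**
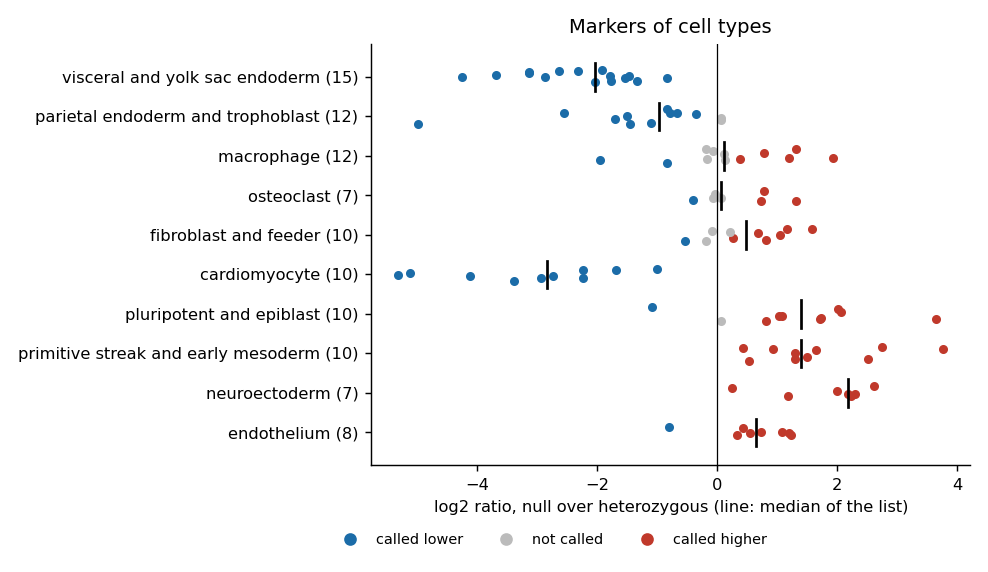
Mean log2 ratio of null over heterozygous signal for each tested marker gene of 10 cell types, with the number tested in brackets; blue points were called lower, red points higher and grey points were not called, and the black line is the median of the list. Visceral endoderm (median -2.03) and cardiomyocyte markers (median -2.83) lie wholly below 0, and primitive streak and neuroectoderm markers wholly above. T, Mixl1, Cx3cr1, C1qc and Aif1 are drawn at their measured ratio, over heterozygous signals at background.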

How the data were processed

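Lysosomal genes were read from 3 2-colour arrays, each with RNA of a null and a heterozygous culture, starting from 200 ng. The authors deposited scanner files with spot intensity values of both channels. Their headers name Agilent Feature Extraction 11.5.1.1, the submitters' processing notes 8.5.1.1. These files also hold a log10 ratio column that the deposited scanner output computed from dye-normalized signals, and it was left aside. The authors also deposited a value table without a stated scale, read here as log2 ratios because it followed the scanner ratios with r of 0.96, 0.95 and -0.94. Its column medians were -0.10, -0.11 and 0.07, and how it was centred is unknown. The sign of array 3 is the reason for turning that array, whose labels say otherwise.

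With limma 3.58.1 in R 4.3.3, foreground and background medians were corrected by normexp (offset 50) and normalized by loess within arrays. Control and outlier spots had weight 0, and spots of a probe were averaged. Probes well above background on all 3 arrays in either genotype were kept (24552 of 39429). lmFit and eBayes tested each log2 ratio against 0, with Benjamini-Hochberg adjustment over these probes, and the test was checked on simulated data. SEs are the moderated ones. A called gene had an adjusted p under 0.05. Single-channel signals were taken after Aquantile scaling between arrays. With 2 arrays of 1 dye orientation against 1, a dye effect does not cancel. A bound ("at least") sets the dim channel to the lowest signal well above background, or its own if higher, and is open to dye bias.

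Accessions were matched to a RefSeq table (GRCm38.p6), naming 28025 of 39429 probes (71.1%). The array design is on mm9, per the file headers, so no probe coordinates are given, and promoter coordinates are those of RefSeq. The members and lists were chosen with earlier results of these data known. Named are Hopx, all members, values by array for members changed at least 2-fold, dim members, Tfeb and Lamp1, extremes of each role, and up to 3 called genes per further list. Genes behind a count of 5 or fewer, the other members' values and the Lamp1 promoter were named after values were seen. Alternatives were no background subtraction, median centring without loess, processed signals, the authors' table, other filters, leaving out replicates, replicate 3 as labelled, an ordinary t statistic, a dye term, unpaired channels and the mean over probes.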

Additional observations from a re-analysis of the deposited data

How the results depend on the processing

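The count of 33 lower lysosomal genes stayed between 28 and 33 without background subtraction, with processed signals, with the authors' deposited table, with other filters on dim probes, with a dye term and with the mean over probes, and was 30 to 32 with a replicate left out. It was 22 with median centring and with an ordinary t statistic per probe, 29 with unpaired channels (no replicate block), 16 at 2-fold or more, and 0 with replicate 3 as labelled (limma, also 0 at an unadjusted p under 0.05). Higher genes numbered 1, or 2 with median centring and with processed signals, 1 to 2 with a replicate left out, and 0 as labelled, with the ordinary t statistic (0 unadjusted) and at 2-fold or more. The median of -0.85 became -0.91 without background subtraction, -0.50 with median centring, -0.92 with processed signals, -0.77 with the authors' table and -0.22 as labelled. Median centring moved the median of all genes to 0.23, 0.73 above that of the lysosomal genes, and called 15.2% of all genes lower and 43.1% higher, against 30.1% and 30.2%. With the authors' table these shares of all genes were 21.5% and 19.7%, and without a filter on dim probes 18.5% and 18.5%. They were 10.3% and 9.92% with the ordinary t statistic, and 20.8% and 20.3% with unpaired channels. With a replicate left out, 24.6% to 30.3% of all genes were lower and 25.1% to 29.6% higher. Lamp1 turned as labelled (0.035), and Hexa (0.094) and Cln3 (0.16) with median centring. Over all genes 11943 calls became 3998 with the ordinary t statistic and 0 as labelled. The related lists' 66 lower calls became 27 with median centring, 27 with the ordinary t statistic and 0 as labelled, and their 17 higher calls became 33, 7 and 0, and 10 with unpaired channels. Each of the 16 genes lower by at least 2-fold kept its call in every alternative but replicate 3 as labelled, except Ctsd and Cd63 with the ordinary t statistic. The number lower by at least 2-fold was 6 with median centring, 12 with the authors' table, 13 with the mean over probes, 14 with the ordinary t statistic and 15 with each replicate left out. The 2-fold share of all genes was not determined at these settings, so these counts cannot be set against a background. The cause of these shifts was not tested. The motif count was 13 in both windows. Signals near background, as for Ctss and Arsb, allow no statement on a change.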
